A study of Mus musculus with 10 samples.

Results

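The 34 genes described here belong to 5 branches of lipid metabolism: 13 sterol synthesis enzymes, 5 sterol regulators and transport genes, 4 genes of acetyl-CoA and fatty acid synthesis, 6 of fatty acid desaturation and elongation, and 6 of lipid export and storage. They were given as a list of gene names, chosen with earlier results of these data known. They stand among 54408 genes in the tables, and 32 of them had enough reads to be tested. Mouse cells build cholesterol from acetyl-CoA through the mevalonate pathway. When membrane cholesterol is low, the transcription factors SREBP-1 and SREBP-2 are released to the nucleus and switch on the enzymes of this pathway and of fatty acid synthesis. When cholesterol is plentiful its oxidised forms activate LXR receptors, which switch on genes of cholesterol export. T cells that are activated to divide raise sterol synthesis and lower LXR activity.

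The libraries were made from CD8 T cells sorted from subcutaneous B16-gp33 melanomas in mice, 7 days after transfer. B16-gp33 cells are mouse melanoma cells that express the gp33 peptide, for which P14 T cells carry a transgenic receptor. NFAT5 KO cells were NFAT5flox/flox CD4-Cre+/- and WT cells NFAT5flox/flox CD4-Cre-/-, both P14 on a C57BL/6 background, so WT cells carry the floxed alleles without the recombinase and differ from KO cells in Cre as well. Cre under the Cd4 promoter acts during T cell development, before the transfer. Cells of both groups were activated for 48 hours in culture before they were transferred into tumour-bearing mice. The 5 NFAT5 KO libraries were named 678_3, 678_5 and 678_6 with 679_2 and 679_6, and the 5 WT libraries 678_2 and 678_4 with 679_3, 679_4 and 679_5. The labels do not say what 678 and 679 stand for, and the sources used here give neither ages nor sort markers. Whether the libraries of a group came from different mice is not stated, and p-values then measure only the spread between these libraries, which may be partly technical.

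The libraries held 22444310 to 32001285 estimated counts each. NFAT5 is the transcription factor that cells use to respond to high salt. Nfat5 itself was counted at 12.2, 12.6, 11.6, 26.7 and 11.9 CPM (counts scaled to the library total with TMM factors) in the NFAT5 KO libraries and at 18, 17.2, 18.3, 9.2 and 14.2 CPM in the WT libraries, each in the order above. The groups overlapped (log2 fold change -0.04, SE 0.27, adjusted p = 0.957). The labels do not name the floxed exons, and a count over the whole gene includes reads from outside them, so this value does not check the deletion. The 8 CD8 T cell markers summed to 8227 to 8600 CPM in NFAT5 KO and 7712 to 8676 CPM in WT libraries. Of 13081 genes tested, 737 were lower in NFAT5 KO (5.63%) and 442 higher (3.38%), 9.01% in all, at an adjusted p below 0.05, which is what passing the test means throughout. Among the 8 CD8 T cell markers 2 were higher (25%), none was lower and 6 did not pass. The higher ones were Cd2 (log2 fold change 0.46, SE 0.11, adjusted p = 0.0204) and Cd5 (0.29, SE 0.08, adjusted p = 0.0468).

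Of the 32 tested genes of the list, 5 were lower in NFAT5 KO cells (15.6%, beside 5.63% of all genes) and 3 were higher (9.38%, beside 3.38%). The lower ones were the sterol enzymes Idi1, Cyp51 and Fdft1, the cholesterol carrier Stard4 and the cholesterol-esterifying enzyme Soat1. The higher ones were the acetyl-CoA synthetase Acss2, the cholesterol exporter Abcg1 and Mylip, which marks lipoprotein receptors for degradation. In 6 of the 32 genes (18.8%) every NFAT5 KO library lay below every WT library, beside 6.41% of all genes tested, and in 3 (9.38%) every one lay above, beside 3.92%. The other 24 did not pass, and 16 of the 32 (50%) had an unadjusted p below 0.05, beside 23.2% of all genes tested. The median log2 fold change (NFAT5 KO over WT) was -0.37 over the 32 genes and 0.02 over all genes tested. Because the list was chosen with earlier results of these data known, these values beside all genes are a description and no independent test. In bulk libraries, fewer cells of a type and less RNA per cell cannot be told apart.

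**Figure D1:**
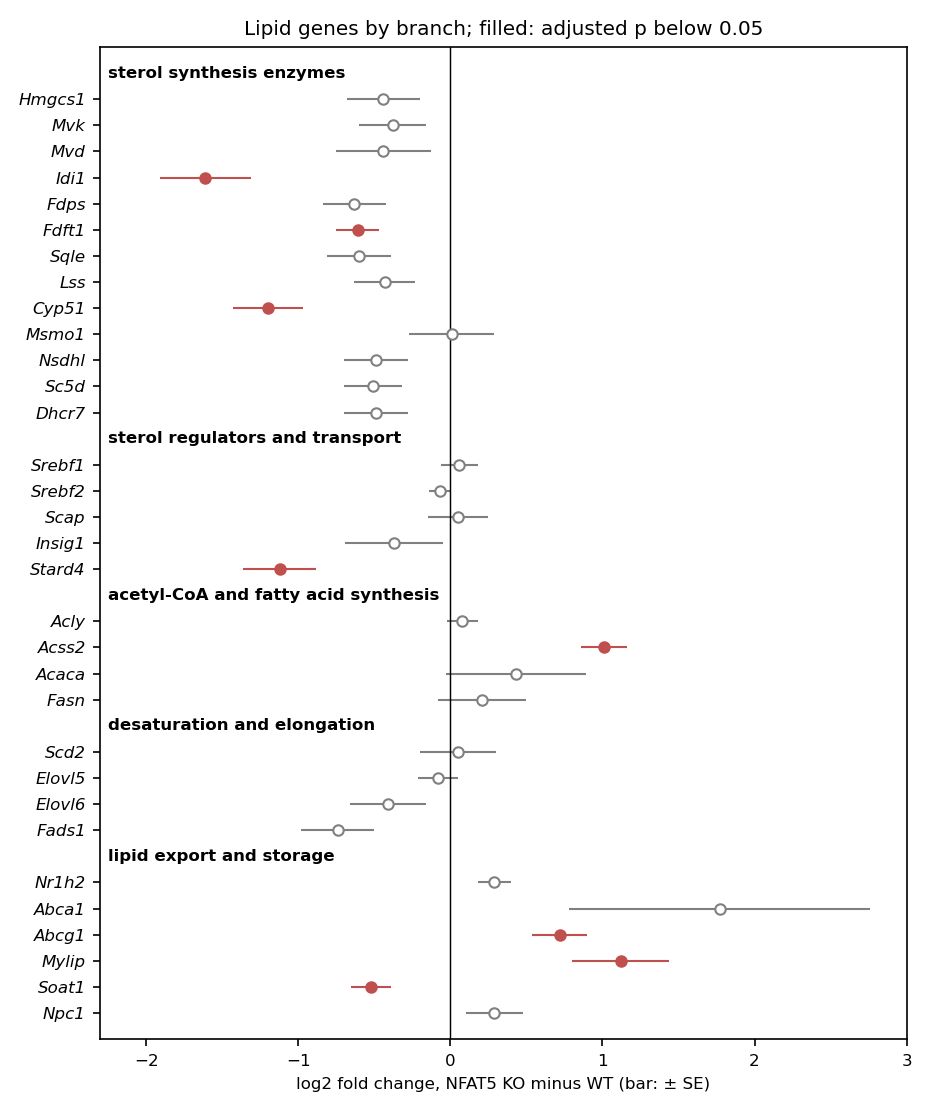
Log2 fold change of each tested gene (NFAT5 KO minus WT, horizontal axis) with its SE as a bar, grouped by branch, with filled red points for the 8 genes past the threshold. Of the sterol synthesis enzymes, 12 of 13 lie left of 0 and Msmo1 lies at 0.01, changing sign with the scaling, while the 4 genes of acetyl-CoA and fatty acid synthesis lie right of it.

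The sterol synthesis branch, ordered from Hmgcs1, which makes HMG-CoA, to Dhcr7, which finishes cholesterol, lay mostly below WT. Of its 13 enzymes 3 were lower (23.1%, beside 5.63% of all genes), none was higher (beside 3.38%) and 10 did not pass. A negative log2 fold change was found in 12 of the 13, against 48.2% of all genes, and the branch median was -0.49. In edgeR's test 9 of the 13 (69.2%) had an unadjusted p below 0.05, beside 23.2% of all genes. As the list was chosen with results known, these shares are a description. Summed over the branch, the enzymes came to 252.7, 219.5, 255.1, 255.1 and 255.4 CPM in NFAT5 KO libraries and to 382.1, 324.1, 368.7, 587.9 and 300.7 CPM in WT libraries. The 5 NFAT5 KO sums lay close together and all below the lowest WT sum, and WT 679_4 stood far above the other WT libraries.

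Idi1 (ENSMUSG00000058258, GRCm38 chromosome 13, 8885501 to 8892451) encodes isopentenyl-diphosphate isomerase, which interconverts the pathway's 2 activated isoprene units. It was counted at 13.7, 10.9, 12.6, 12.7 and 18.4 CPM in NFAT5 KO libraries, against 46.3, 19.6, 41.6, 72.3 and 29.2 CPM in WT libraries. The groups did not overlap, although the lowest WT library, 678_4, lay just above the highest NFAT5 KO library. Idi1 averaged 13.6 ± 2.81 CPM in NFAT5 KO and 41.8 ± 20.02 CPM in WT cells (SD, n = 5 each), and the log2 fold change came to -1.61 (SE 0.30, adjusted p = 0.00493). Its fitted level in NFAT5 KO cells was 32.7% of that in WT cells. It passed in all 10 fits that each left out 1 library.

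Cyp51 (ENSMUSG00000001467, chromosome 5, 4081145 to 4104746) encodes lanosterol demethylase, which acts on the first sterol of the pathway. It was counted at 30.8, 22.8, 28.6, 26.7 and 23.1 CPM in NFAT5 KO libraries and at 51.1, 48.5, 51.2, 109 and 44 CPM in WT libraries. The groups were well apart, and WT 679_4 was far above the other WT libraries. The log2 fold change came to -1.20 (SE 0.23, adjusted p = 0.00683), and it was -0.89 (adjusted p = 0.00211) without WT 679_4. Fdft1 (ENSMUSG00000021273, chromosome 14, 63145150 to 63179578) encodes squalene synthase, the step that commits isoprenoids to sterols. It was counted at 30.3, 21.5, 23.5, 21.6 and 23.1 CPM in NFAT5 KO libraries, against 38.4, 31, 32.9, 44.8 and 36.5 CPM in WT libraries. NFAT5 KO 678_3 came close to the lowest WT library, and the log2 fold change came to -0.61 (SE 0.14, adjusted p = 0.0196). Without WT 678_2 its adjusted p was 0.0553. Up to 774 exonic bases of Fdft1 are shared with Ctsb on the opposite strand, which was also lower (log2 fold change -0.35, SE 0.09, adjusted p = 0.0350), and the sources used here do not give the strand setting of the counting.

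The remaining 10 enzymes did not pass the test. Fdps, which makes farnesyl diphosphate, had 30.3, 18.1, 26.1, 30.4 and 31.6 CPM in NFAT5 KO libraries and 41.2, 34.3, 34, 65 and 37.4 CPM in WT libraries. Its groups did not overlap either (log2 fold change -0.63, SE 0.21, adjusted p = 0.0784). With Idi1, Cyp51 and Fdft1 it made 4 of 13 enzymes with every NFAT5 KO library below every WT library, the pattern seen in 6.41% of all genes. Sqle, the squalene epoxidase that controls flux through the later pathway, stood at -0.60 on the log2 scale (SE 0.21, adjusted p = 0.101). Hmgcs1 opens the pathway, Mvk and Mvd process mevalonate, Lss closes the sterol rings, and Nsdhl, Sc5d and Dhcr7 carry out late steps on the sterol. The log2 fold changes of these 7 lay between -0.51 and -0.38, with adjusted p-values of 0.119 to 0.423. Msmo1, which acts in removing methyl groups from the sterol ring, was the exception at 0.01 (SE 0.28), and with library totals alone as scaling it stood at -0.03. Per length, Mvd was the least abundant enzyme of the branch in both groups, at 4.98 ± 1.11 TPM in NFAT5 KO and 6.70 ± 2.83 TPM in WT cells (SD, n = 5 each).

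**Figure D2:**
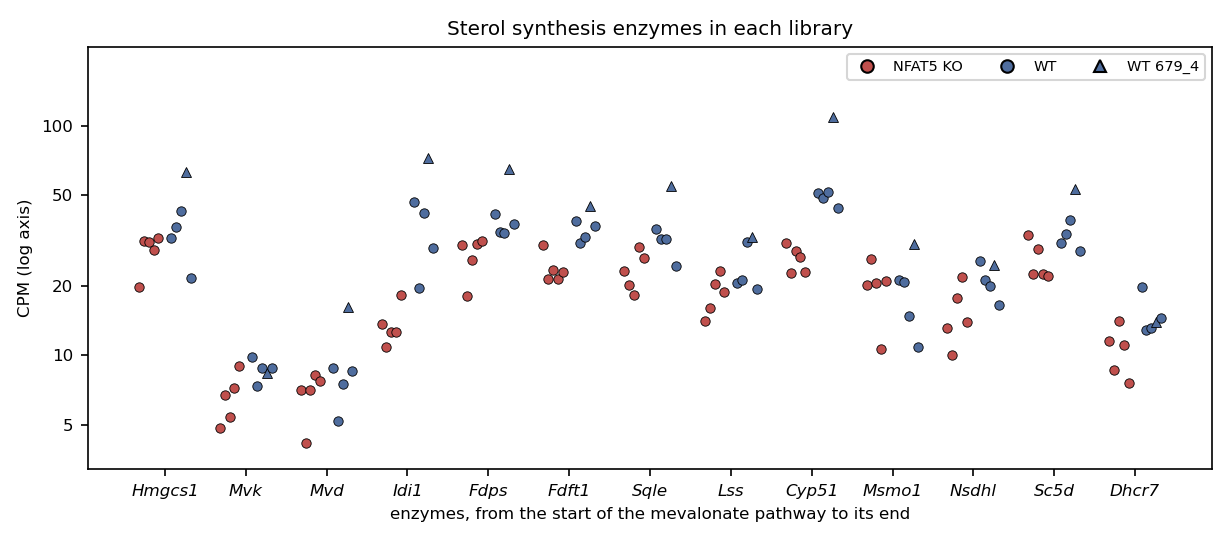
CPM (vertical log axis) of the 13 sterol synthesis enzymes in pathway order, with red circles for NFAT5 KO libraries, blue circles for WT libraries and a blue triangle for WT 679_4. NFAT5 KO and WT points do not overlap for Idi1, Fdps, Fdft1 and Cyp51, and WT 679_4 is the highest WT library for 10 of the 13 enzymes.

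One WT library stood apart from the rest. WT 679_4 was the highest WT library for 10 of the 13 sterol enzymes, at a median of 0.66 on the log2 scale above its group's mean, and the lowest for all 4 genes of acetyl-CoA and fatty acid synthesis (median -0.98). Across 13074 genes its deviation from the mean of the other WT libraries had a Spearman correlation of -0.29 with transcript length. In the other 9 libraries, each set against the rest of its own group, it was -0.15 to 0.24, a description across genes that are not independent. Without this library the sterol branch median was -0.40, and Idi1, Cyp51, Fdft1 and Stard4 still passed (log2 fold changes -1.33, -0.89, -0.54 and -0.93). Of the enzymes that had not passed, most moved towards 0 without it, for example Hmgcs1 to -0.22, Mvd to -0.15 and Sqle to -0.40, while Mvk (-0.40), Dhcr7 (-0.52) and Msmo1 (0.21) did not. The part of transcript length in the result was not tested. The length offset given in the closing section adjusts each gene only for differences in its own effective length between libraries. It does not adjust for a dependence on length across genes.

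Promoter sequence is shown for Idi1 and Cyp51 because they had the smallest p-values of the branch. Hmgcs1, the entry enzyme, and Acss2, the higher acetyl-CoA gene, were added for contrast after their values were seen. Each sequence is the 250 bases before the RefSeq start on GRCm38.p6, read on the gene's strand. Capitals mark matches on either strand to CACNCCAC (the core of a sterol response element), CACGTG (the E-box), CCAAT (the NF-Y motif) and TGGAAA (the core of the NFAT5 element), and no matches overlap. Fdft1 is not shown. The windows lie at chr13:8885356-8885605 (Idi1, plus strand), chr5:4104698-4104947 (Cyp51, minus strand), chr13:119690101-119690350 (Hmgcs1, plus strand) and chr2:155517793-155518042 (Acss2, plus strand).
Idi1: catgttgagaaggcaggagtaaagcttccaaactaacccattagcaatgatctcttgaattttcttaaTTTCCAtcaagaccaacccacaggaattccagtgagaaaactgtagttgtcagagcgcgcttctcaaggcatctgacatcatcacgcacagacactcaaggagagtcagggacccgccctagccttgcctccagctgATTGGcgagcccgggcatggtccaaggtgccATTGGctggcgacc
Cyp51: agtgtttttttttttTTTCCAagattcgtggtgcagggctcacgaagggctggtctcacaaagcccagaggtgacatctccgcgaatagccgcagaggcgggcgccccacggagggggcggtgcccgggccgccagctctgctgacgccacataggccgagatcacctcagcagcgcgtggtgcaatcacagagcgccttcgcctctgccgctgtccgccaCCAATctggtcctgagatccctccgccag
Hmgcs1: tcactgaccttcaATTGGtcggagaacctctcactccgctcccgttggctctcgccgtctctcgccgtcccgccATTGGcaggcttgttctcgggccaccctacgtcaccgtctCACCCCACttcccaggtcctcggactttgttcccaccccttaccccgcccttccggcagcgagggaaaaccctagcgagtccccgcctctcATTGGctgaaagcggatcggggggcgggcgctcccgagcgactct
Acss2: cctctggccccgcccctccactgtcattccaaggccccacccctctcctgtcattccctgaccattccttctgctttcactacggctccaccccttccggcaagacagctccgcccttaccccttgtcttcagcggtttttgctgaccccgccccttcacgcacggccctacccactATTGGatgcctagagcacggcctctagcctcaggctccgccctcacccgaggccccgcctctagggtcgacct

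CCAAT, read on the reverse strand as ATTGG, was found 45 and 14 bases before the RefSeq start of Idi1 and 73 bases before that of Acss2. On the forward strand it was found 29 bases before that of Cyp51. In the GENCODE M21 annotation used for counting, these genes begin further upstream, at 8885501 (Idi1), 155517948 (Acss2) and 4104746 (Cyp51, minus strand). These CCAAT matches therefore lie inside the counted genes, not before them. Hmgcs1 held 3 copies and 1 match to CACNCCAC. RefSeq windows were matched for 25 genes of the list, among them 10 of the 13 sterol enzymes. All 10 of these enzymes held CCAAT (100%), beside 18 of the 25 list genes (72.0%) and 37.5% of 27025 genes in the table, a gene with several windows counting once if any held the motif. Per window, CCAAT was in 10 of 12 of these enzymes' windows (83.3%), beside 33.8% of all 32851. Dhcr7 held it only in its window at 143829964 to 143830263. The table is not limited to the genes tested here. CACNCCAC was in 1 of the 10 (10%, beside 6.05% of all genes), CACGTG in 2 (20%, beside 6.86%) and TGGAAA in 2 (20%, beside 20.9%). Both TGGAAA matches among the enzymes were in the windows printed, 182 bases before the start of Idi1 and 235 before that of Cyp51. Only exact matches were counted, so a sterol response element with other letters would be missed. A match describes the letters in this window and no binding was measured.

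Among sterol regulators and transport genes, the SREBP machinery itself did not pass the test and only Stard4 did (20% lower, beside 5.63% of all genes). Stard4 (ENSMUSG00000024378, chromosome 18, 33199355 to 33213862) encodes a carrier that moves cholesterol between membranes. It was counted at 18.2, 15.3, 8.25, 14.9 and 19.1 CPM in NFAT5 KO libraries, against 32.9, 25.1, 28.7, 49.9 and 28.1 CPM in WT libraries. All NFAT5 KO values lay below all WT values, and the level was 46.0% of that in WT (log2 fold change -1.12, SE 0.24, adjusted p = 0.0126). It passed in all 10 fits with 1 library left out. Its fold is close in size to that of Cyp51, while the other 4 genes of the branch stayed between -0.37 and 0.06.

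Srebf2, which encodes SREBP-2, the main driver of sterol genes, had 222, 223, 209, 216 and 235 CPM in NFAT5 KO libraries and 238, 249, 211, 239 and 222 CPM in WT libraries. The values interleaved, and the log2 fold change came to -0.07 (SE 0.07, adjusted p = 0.619). Srebf1, which encodes SREBP-1, averaged 110 ± 16.1 CPM in NFAT5 KO and 106 ± 12.9 CPM in WT cells (log2 fold change 0.06, SE 0.12). Of its estimated counts, 60.9% in NFAT5 KO and 60.8% in WT cells came from the transcript Srebf1-201. Scap, which escorts SREBPs to the Golgi, stood at 0.05 (SE 0.20) and at -0.13 without WT 679_4. Insig1, which holds the SREBP complex back and is itself a sterol-repressed gene, stood at a log2 fold change of -0.37 (SE 0.32), with 7.90 to 19.8 CPM in NFAT5 KO and 7.97 to 26.6 CPM in WT libraries. These mRNA levels do not measure how much SREBP is released to the nucleus.

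**Figure D3:**
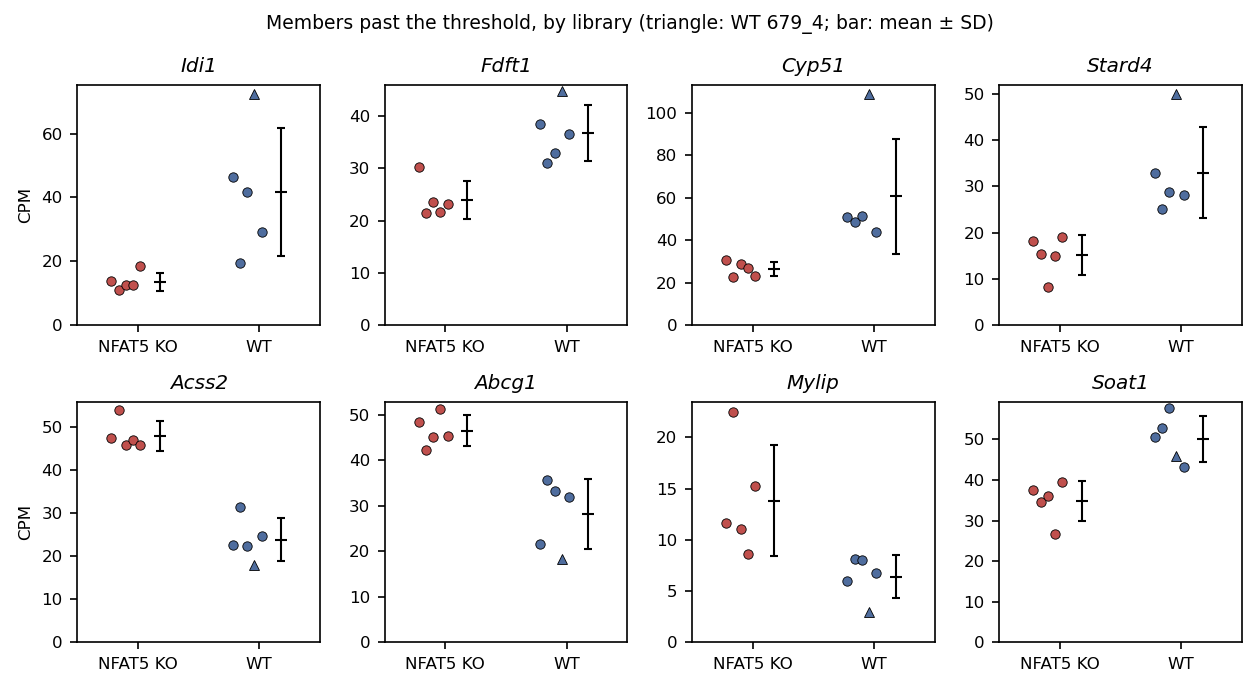
CPM by library for the 8 genes past the threshold, NFAT5 KO (red) left of WT (blue), with the mean and SD as a bar and WT 679_4 as a triangle. The groups do not overlap in any of the 8 panels, and WT 679_4 is the highest WT library in the panels of Idi1, Fdft1, Cyp51 and Stard4 and the lowest in those of Acss2, Abcg1 and Mylip.

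Among genes that supply acetyl-CoA and build fatty acids, 1 of 4 was higher (25%, beside 3.38% of all genes). None passed the test as lower (beside 5.63%). Acss2 (ENSMUSG00000027605, chromosome 2, 155517948 to 155585724) encodes the enzyme that makes acetyl-CoA from acetate in the cytosol and nucleus, and is a known SREBP target. It was counted at 47.4, 54.1, 45.8, 47.1 and 45.8 CPM in NFAT5 KO libraries, against 22.7, 31.5, 22.4, 17.9 and 24.8 CPM in WT libraries. The highest WT library lay well below the NFAT5 KO range, and the level was 2.01 times that in WT (log2 fold change 1.01, SE 0.15, adjusted p = 0.00128). This was the smallest adjusted p of the list, and the gene passed in all 10 fits with 1 library left out. Acss2 shares exonic stretches of up to 163 bases with Gss, 197 with Ggt7 and 222 with Acss2os on the opposite strand. Of these, Gss stood at 0.33 on the log2 scale (SE 0.14, adjusted p = 0.156).

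Acly, which makes acetyl-CoA from citrate, had the highest TPM of the list in both groups, at 112 ± 12.0 in NFAT5 KO and 109 ± 21.7 in WT cells (SD, n = 5 each). Its log2 fold change stood at 0.08 (SE 0.10, adjusted p = 0.707), while Acss2 was at 19.8 ± 2.21 TPM in NFAT5 KO and 9.90 ± 2.78 TPM in WT cells. Fasn, the fatty acid synthase, had 272, 267, 297, 336 and 301 CPM in NFAT5 KO libraries and 271, 262, 317, 76.6 and 350 CPM in WT libraries. WT 679_4 alone was far below the rest, and the fold change was 0.21 (SE 0.29) with it and -0.04 without it. Acaca, the acetyl-CoA carboxylase that precedes Fasn, spread from 13.7 to 45.4 CPM in NFAT5 KO and from 3.84 to 29.4 CPM in WT libraries (log2 fold change 0.43, SE 0.46), with the lowest value again in WT 679_4. The branch median was 0.32, and without WT 679_4 the median was 0.07 and Acly stood at -0.02.

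No gene of desaturation and elongation passed the test, and 2 of 6 had too few reads to be tested. Fads1, which introduces a double bond into long polyunsaturated fatty acids, came nearest, with 16.2, 23.8, 12.3, 16.3 and 11.9 CPM in NFAT5 KO libraries and 30, 18.5, 20.4, 37.8 and 27.3 CPM in WT libraries. NFAT5 KO 678_5 lay within the WT range, and the log2 fold change came to -0.74 (SE 0.24, adjusted p = 0.0762). Fads1 passed without NFAT5 KO 678_5 (-0.94, adjusted p = 0.0262), without WT 678_4 (-0.86, adjusted p = 0.0426) and in the DESeq2 Wald test (-0.74, adjusted p = 0.0247). Scd2, the abundant stearoyl-CoA desaturase of these cells, averaged 127 ± 32.1 CPM in NFAT5 KO and 123 ± 38.4 CPM in WT cells, with a log2 fold change of 0.05 (SE 0.25) that was -0.14 without WT 679_4. Its relative Scd1 reached at most 2.98 CPM in NFAT5 KO and 0.788 CPM in WT libraries. Fads2, the partner desaturase of Fads1, had 0 counts in all 5 NFAT5 KO libraries and in 3 WT libraries, and 0.334 and 0.539 CPM in WT 678_2 and 679_4. The elongases Elovl5 and Elovl6 stood at -0.08 (SE 0.13) and -0.41 (SE 0.25), and neither passed.

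Of the 6 export and storage genes, 2 were higher (33.3%, beside 3.38% of all genes), 1 was lower (16.7%, beside 5.63%) and 3 did not pass. Abcg1 (ENSMUSG00000024030, chromosome 17, 31057675 to 31117988), an LXR target that exports cholesterol, had 48.4, 42.2, 45.2, 51.2 and 45.3 CPM in NFAT5 KO libraries, against 21.6, 35.6, 33.2, 18.3 and 32 CPM in WT libraries. The groups did not overlap, and the level was 1.65 times that in WT (log2 fold change 0.72, SE 0.18, adjusted p = 0.0245). It passed in 5 of the 10 fits with 1 library left out. Its adjusted p was 0.0515, 0.0541, 0.0670, 0.0524 and 0.0653 without NFAT5 KO 678_3, 678_6, 679_2, 679_6 and WT 678_2.

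Mylip (ENSMUSG00000038175, chromosome 13, 45389742 to 45412022), another LXR target, had 11.6, 22.5, 11.1, 8.66 and 15.3 CPM in NFAT5 KO libraries and 6.01, 8.18, 8.02, 3 and 6.74 CPM in WT libraries. The lowest NFAT5 KO library was just above the highest WT library. Its log2 fold change stood at 1.12 (SE 0.32, adjusted p = 0.0455), close to the threshold, and of the fits with 1 library left out only that without NFAT5 KO 679_2 passed, the others giving adjusted p-values of 0.0505 to 0.109. Soat1 (ENSMUSG00000026600, chromosome 1, 156424525 to 156474331), which turns cholesterol into esters for storage, had 37.6, 34.6, 36, 26.7 and 39.6 CPM in NFAT5 KO libraries and 50.6, 52.9, 57.7, 45.9 and 43.2 CPM in WT libraries. All NFAT5 KO values lay below all WT values (log2 fold change -0.52, SE 0.13, adjusted p = 0.0271). Without WT 678_2 and WT 679_3 its adjusted p was 0.0619 and 0.0637.

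Abca1, the other main LXR-driven exporter, was low in every library, at 1.83, 0.403, 1.48, 4.28 and 5.37 CPM in NFAT5 KO libraries and 2.27, 0.102, 0, 0.742 and 0.788 CPM in WT libraries. The groups overlapped, and its log2 fold change of 1.77 had an SE of 0.99 (adjusted p = 0.312). Nr1h2, which encodes LXR beta, did not pass (log2 fold change 0.29, SE 0.11, adjusted p = 0.121), nor did Npc1, which lets cholesterol out of lysosomes (0.29, SE 0.19, adjusted p = 0.391). Of the LXR-linked genes in the branch, Nr1h2 was the most abundant per length at 105 ± 18.2 TPM in NFAT5 KO and 88.1 ± 11.4 TPM in WT cells.

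**Figure D4:**
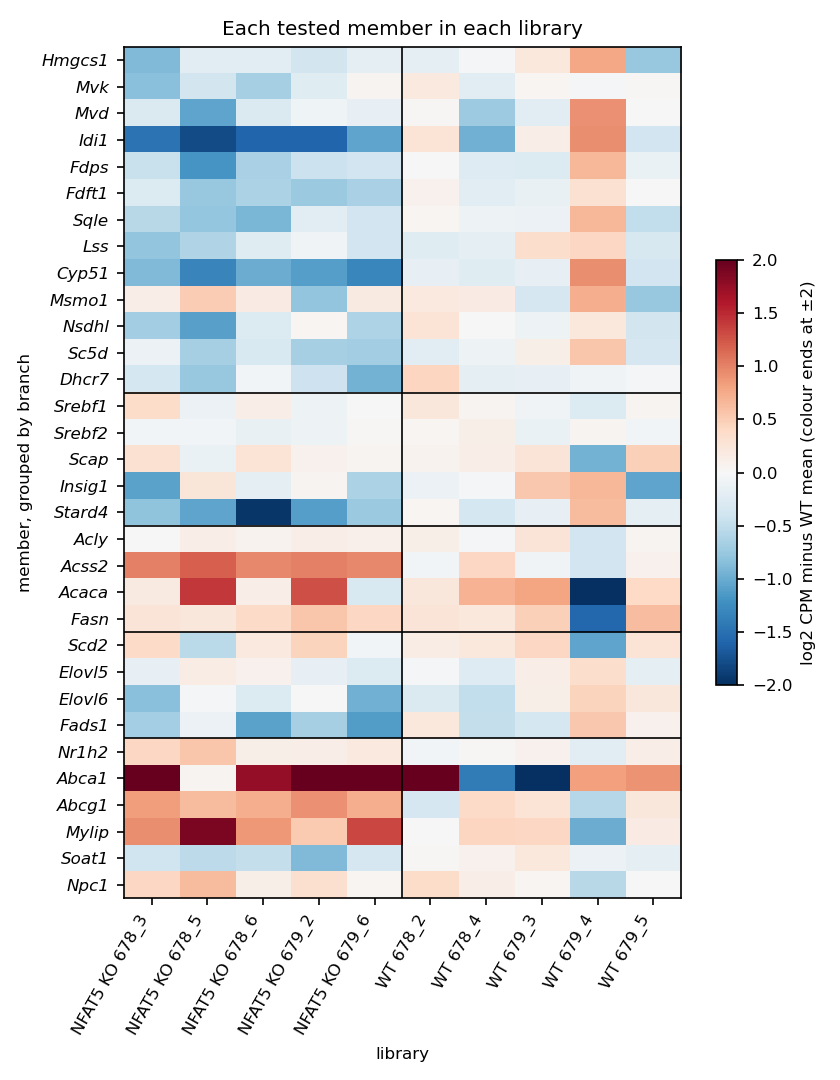
Log2 CPM of each tested gene in each library minus its WT mean, as colour from blue (lower) to red (higher) with the scale ending at ±2, NFAT5 KO libraries left and WT libraries right, branches divided by lines. Idi1, Cyp51 and Stard4 are blue in all 5 NFAT5 KO libraries, Acss2, Abcg1 and Mylip are red in all 5, and WT 679_4 differs from the other WT libraries across several branches.

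Most of each called gene came from a single transcript in both groups. Transcript Idi1-201 gave 96.2% of the estimated counts of Idi1 in NFAT5 KO and 97.7% in WT cells. Cyp51-201 gave 97.6% and 97.8% of those of Cyp51 in NFAT5 KO and WT cells. The shares of the leading transcripts of Acss2 were 78.1% in NFAT5 KO and 76.0% in WT cells, those of Stard4 were 77.6% and 75.7% in the same order, and those of Abcg1 were 93.0% and 90.6%. These shares are a description and were not tested. Idi1 shares an exonic stretch of 323 bases with Gm48574 on the opposite strand, and Cyp51 1 of 166 bases with Akap9 (log2 fold change 0.19, SE 0.17, adjusted p = 0.541), and without strand such reads cannot be told apart. Per length, Idi1 stood at 5.89 ± 0.892 TPM in NFAT5 KO and 17.0 ± 7.71 TPM in WT cells (SD, n = 5 each), which placed it 27th among the 34 genes in NFAT5 KO and 13th in WT cells. Acss2 took rank 11 in NFAT5 KO and rank 22 in WT cells.

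Genes of the neighbouring pathways, from lists also chosen with results known, are given as counts. Over all genes tested, 5.63% were lower and 3.38% higher. Of 19 other sterol pathway genes 3 were lower (15.8%) and none higher, among them Lbr, a nuclear envelope protein with sterol reductase activity (log2 fold change -0.29, SE 0.07, adjusted p = 0.0278). Of 17 other fatty acid synthesis genes 1 was lower and 1 higher (5.88% each), close to the shares over all genes. Acsl5, which activates long-chain fatty acids, was lower (-0.32, SE 0.09, adjusted p = 0.0393), and Hacd3, a dehydratase of the elongation cycle, was higher (0.45, SE 0.10, adjusted p = 0.0146). Fatty acid oxidation was mixed, with 3 of 18 lower (16.7%) and 2 higher (11.1%) and a median of 0. Of the 4 acyl-CoA dehydrogenases, Acadvl was higher (0.53, SE 0.08, adjusted p = 0.00203) and Acadl lower (-0.46, SE 0.10, adjusted p = 0.00913), with no overlap of the groups in either. The other two, Acadm (0.09, SE 0.11) and Acads (-0.04, SE 0.11), did not pass. The acylcarnitine carrier gene Slc25a20 was higher (0.49, SE 0.11, adjusted p = 0.0148) and the electron transfer gene Etfb lower (-0.55, SE 0.13, adjusted p = 0.018). Of 11 genes of lipid uptake and droplets 1 was higher (9.09%) and none lower. It was Dgat1, which completes triglyceride synthesis (1.09, SE 0.30, adjusted p = 0.0416). Dgat1 had 124 CPM in NFAT5 KO 678_5 and 35.4 to 51.7 CPM in the other NFAT5 KO libraries, against 24.9 to 33.3 CPM in WT libraries.

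**Figure D5:**
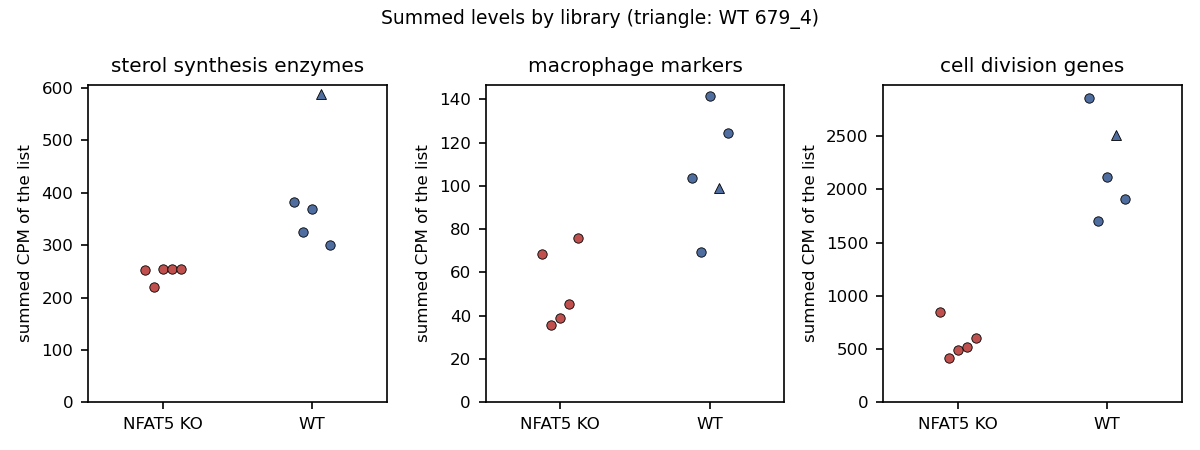
Summed CPM by library of the 13 sterol synthesis enzymes, 12 macrophage and monocyte markers and 12 cell division genes, NFAT5 KO left of WT, with WT 679_4 as a triangle. The sterol and cell division sums do not overlap between groups, whereas the macrophage sums do overlap.

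Cell division genes and the markers of other cells are given beside these results. All 12 cell division genes were lower in NFAT5 KO cells (median log2 fold change -2.61), and their sums were 420.4 to 852.7 CPM in NFAT5 KO and 1699 to 2863 CPM in WT libraries. The part of division in the sterol result was not tested. The 12 macrophage and monocyte markers summed to 35.89 to 76.03 CPM in NFAT5 KO and 69.52 to 141.5 CPM in WT libraries, with 1 to 8 of them at 0 in NFAT5 KO and 1 to 3 in WT libraries. Of the 8 that could be tested 1, Adgre1, was lower (12.5%, beside 5.63% of all genes), and it was at 0 in 3 NFAT5 KO libraries. Lyz2 averaged 15.2 ± 14.04 CPM in NFAT5 KO and 48.5 ± 18.5 CPM in WT cells and did not pass (adjusted p = 0.167). The 8 melanoma markers summed to 2.60 to 17.22 CPM in NFAT5 KO and 5.927 to 28.73 CPM in WT libraries, and Sox10 was at 0 in all. Gpnmb gave most of the highest sum of each group, with 13.4 CPM in NFAT5 KO 679_6 and 24.5 CPM in WT 678_2. It did not pass (log2 fold change -1.36, SE 0.86, adjusted p = 0.374). Pmel, the only other melanoma marker with enough reads to be tested, averaged 1.18 CPM in NFAT5 KO and 1.08 CPM in WT cells. The 6 B cell markers summed to 5.155 to 11.04 CPM in NFAT5 KO and 8.846 to 14.42 CPM in WT libraries, and the 6 dendritic cell markers to 9.086 to 21.07 CPM in NFAT5 KO and 3.567 to 13.49 CPM in WT libraries.

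The mean log2 CPM of the macrophage markers was -1.98 to 0.92 in NFAT5 KO and 0.15 to 2.14 in WT libraries. Across the libraries that mean had a correlation of -0.71 with genotype (NFAT5 KO against WT), and the melanoma marker mean one of -0.43. A model with such a mean therefore cannot fully tell its part from that of genotype. Adding the macrophage mean to the model left none of the 32 genes and 96 of 13081 past the threshold. The fold changes in that model were -1.17 for Idi1, -1.15 for Cyp51, -0.82 for Stard4 and 0.84 for Acss2 (adjusted p = 0.300, 0.214, 0.389 and 0.0805). With the melanoma mean in the model, Idi1, Cyp51, Stard4 and Acss2 passed (adjusted p = 0.0255, 0.0438, 0.0447 and 0.0057), and Fdft1, Abcg1, Mylip and Soat1 did not (adjusted p = 0.1, 0.0757, 0.128 and 0.0841). Their log2 fold changes in that model were -0.51, 0.62, 1.03 and -0.50, beside -0.61, 0.72, 1.12 and -0.52 without the melanoma term.

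Both label prefixes gave the same direction for the 8 genes past the threshold. In the 678 libraries (3 NFAT5 KO, 2 WT) alone, the log2 fold changes were -1.41 for Idi1, -0.87 for Cyp51, -0.47 for Fdft1, -1.06 for Stard4 and 0.85 for Acss2. In the 679 libraries (2 NFAT5 KO, 3 WT) alone they were -1.63, -1.46, -0.77, -1.08 and 1.09 for the same genes. Abcg1 stood at 0.66 and 0.79, Mylip at 1.08 and 1.01, and Soat1 at -0.52 and -0.57, for 678 and 679 in that order. Since no group overlaps the other in these genes, the shared sign follows from their values. A test of the difference between prefixes passed for 0 of 13081 genes (377 at an unadjusted p below 0.05, none of them in the list). Of these values only Acss2 in 679 passed (adjusted p = 0.0447), and each prefix held 5 libraries.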

How the data were processed

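RNA of 10 libraries was analysed. The authors deposited 1 Salmon table per library, with an estimated count and a TPM value (abundance scaled by effective length and library total) for each transcript, per the file headers. Salmon had version 0.14.1, with builds GRCm38.p6 and mm10, per the submitters' processing notes. Annotation release, strand setting and trimming count as not given in the sources used here. Reads that fit several transcripts are divided by a model, so overlapping genes are less certain. Transcripts were matched to GENCODE M21 by identifier (140045 of 140919, 99.38%), leaving 0.191% to 0.228% of counts out, then summed per gene and rounded.

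Genes were filtered with filterByExpr, scaled with TMM and tested with edgeR 4.0.16 (robust quasi-likelihood test, R 4.3.3), NFAT5 KO minus WT, with Benjamini-Hochberg adjustment over all 13081 genes and a threshold of 0.05. SE is the log2 fold change divided by the root of F. The biological coefficient of variation was 35.7%, and estimated counts of 22444310 to 32001285 per library set the precision. Log2 CPM used a prior count of 2. TPM was used for levels between genes, and transcript shares were taken from estimated counts, which are not scaled by length. No 2 of the 45 pairs of libraries agreed within sampling noise (lowest chi-square per degree of freedom 27.4). Labels give unique replicate names and pair no libraries. Alternatives were DESeq2 1.42.0 size factors and its Wald test, library totals, no filter, a filter of 5 CPM in 5 libraries, a length offset, the label prefix as a term or each prefix alone, macrophage or melanoma marker means as covariates, and leaving out each library.

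The members and lists were chosen with earlier results of these data known. All 34 members are named, and of other lists up to 4 genes past the threshold with the smallest p-values. Of the other sterol pathway genes that passed, 2 are not reported here. Promoters are from RefSeq (GRCm38.p6).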

Additional observations from a re-analysis of the deposited data

Results flagged for a closer look

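Within a group of 5 libraries, a gene was picked out when its highest or lowest library lay apart from the next one by more than 0.71 of the group's whole range. This was met in 11 of 64 groups. For independent, normally distributed values the cut-off gives about 1 in 20, but CPM values of related genes need not be either. The share over all genes was not computed, so the 11 are a description. Of the 11, 5 were WT 679_4. That library had 109 CPM of Cyp51 where the other WT libraries had 44 to 51.2 CPM. It was lowest in WT for 4 genes, with 67.5 CPM of Scap (others 136 to 180), 3.84 CPM of Acaca (others 19.8 to 29.4), 76.6 CPM of Fasn (others 262 to 350) and 56.1 CPM of Scd2 (others 129 to 154). The other WT case was Dhcr7 at 19.9 CPM in WT 678_2 (others 12.9 to 14.5).

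In the NFAT5 KO group, 678_3 was low for Hmgcs1 at 19.8 CPM (others 28.8 to 32.4) and high for Fdft1 at 30.3 CPM (others 21.5 to 23.5). Library 678_5 was low for Mvd at 4.14 CPM (others 7.04 to 8.19) and high for Acss2 at 54.1 CPM (others 45.8 to 47.4). Library 679_2 was low for Msmo1 at 10.7 CPM (others 20.3 to 26.4).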

How the results depend on the processing

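The 5 lower genes numbered 3 with the length offset, 0 in the 678 libraries alone, 0 in the 679 libraries alone, 0 with the macrophage mean, 3 with the melanoma mean and 8 in the DESeq2 Wald test, which added Fdps (-0.64, adjusted p = 0.026), Sqle (-0.60, adjusted p = 0.0427) and Fads1. The 3 higher genes numbered 0 in the 678 libraries, 1 in the 679 libraries, 0 with the macrophage mean and 1 with the melanoma mean. Over all genes, 1179 calls became 0 in the 678 libraries, 325 in the 679 libraries, 96 with the macrophage mean, 580 with the melanoma mean and 1893 in the Wald test. With 1 library left out the counts ran from 3 (without WT 678_2) to 6 lower genes, from 1 to 2 higher genes and from 696 (without WT 678_2) to 1276 calls over all genes. The prefix fits hold 5 libraries each, and the cause of the other moves was not tested.

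With the length offset Fdft1 (-0.50, adjusted p = 0.109), Soat1 (-0.52, adjusted p = 0.082) and Mylip (1.1, adjusted p = 0.0555) did not pass. Mylip also failed with library totals (adjusted p = 0.0527), with no filter (0.0522) and with the prefix as a term (0.0776), and passed in 3 of 11 settings other than leaving out a library. No gene that had passed turned its direction under any alternative run, and 63 of their 80 values with 1 library left out and 55 of their 88 values under other settings stayed past the threshold. Scaling alternatives moved the median of all genes by at most 0.042 (log2).

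Among genes that had not passed, some changed sign. Msmo1 (0.01) was at -0.03 with library totals, -0.0084 with no filter, -0.0015 with the 5 CPM filter, -0.01 with the length offset, -0.07 with the prefix as a term, -0.26 in the 679 libraries and -0.18 with the macrophage mean. In the 678 libraries Srebf1 was at -0.0036, Scd2 at -0.11, Elovl5 at 0.17 and Elovl6 at 0.04 (-0.41 in all libraries), and in the 679 libraries Srebf2 was at 0.0037 and the median of the sterol regulators at 0. With the melanoma mean Scap was at -0.01 and Scd2 at -0.02, and with the macrophage mean Acaca was at -0.31 (0.43 without it). With 1 library left out, Msmo1 ran from -0.16 to 0.21, Srebf1 from -0.05 to 0.11, Scap from -0.13 to 0.16, Acly from -0.02 to 0.12, Fasn from -0.04 to 0.33, Scd2 from -0.14 to 0.16 and Elovl5 from -0.16 to 0.0086.

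No paired analysis was possible because the labels give each library its own name and pair none across groups. Scd1 and Fads2 had too few reads to be tested.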
